A study of Rattus norvegicus with 12 samples.

Results

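The genes that carry glucose into the heart, break it down to lactate and store it as glycogen were examined in left ventricular RNA of rats whose hearts had failed after an infarct (HF). The set was taken by gene symbol and held 34 genes of the 34700 in the deposited table. It comprised the transporters Slc2a1, Slc2a4 and Slc16a3, the enzymes of glycolysis with their isozymes, the 4 bifunctional enzymes Pfkfb1 to Pfkfb4, and 8 enzymes of glycogen synthesis and breakdown. Every gene of the list was found.

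Each of the 4 groups held 3 male Sprague-Dawley rats, 8 weeks old at surgery, and every heart was taken 12 weeks after it. Sham rats had the thread passed under the left anterior descending coronary artery without being tied, while HF, HFE and BAIBA rats had the artery ligated. The methods assigned rats to groups by ejection fraction. HF rats are labelled sedentary. For the BAIBA experiment the methods gave Sham and HF rats water by gavage, while a supplementary scheme has Sham and HF groups treated with BAIBA, and the labels do not say which experiment the Sham and HF rats here belonged to. The labels were followed, with BAIBA only in the BAIBA group. HFE rats were trained by treadmill running, 60 min on 5 days of the week for 8 weeks. BAIBA rats received β-aminoisobutyric acid, an amino acid metabolite that contracting muscle releases, by gavage for 8 weeks at a daily 75 mg/kg. The tissue came from the anterior wall of the ventricle, and for BAIBA rats the methods give it as the area around the infarct. Elsewhere the paper places HF tissue there too. By the methods, the sampled area cannot be told apart from the group in any comparison with BAIBA rats. Exercise and BAIBA were described as separate experiments, so experiment and treatment cannot be told apart in BAIBA against HFE, nor in whichever comparisons with HF or Sham cross the experiments. RNA came from whole tissue, in which fewer cells of a type and less RNA per cell cannot be told apart. No source states how the counting treated the strand or whether the rats of a group came from separate litters.

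As background, the heart takes up glucose through the insulin-responsive transporter GLUT4 and the basal transporter GLUT1, and hexokinase traps it in the cell. Phosphofructokinase then commits it to glycolysis, and the bifunctional PFKFB enzymes set the level of fructose 2,6-bisphosphate, which activates phosphofructokinase. Glycogen is a reserve that phosphorylase opens under adrenergic drive or lack of oxygen, and hearts under load or after infarction are known for a shift between fatty acid and glucose use.

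Depth ranged from 14812541 to 19732588 counts per rat, and the 34 genes took between 1.11 and 1.399% of them. Levels between genes were compared as FPKM, a value per length, and levels between rats as CPM, counts scaled to a common library size. Ldhb had the highest mean FPKM over the 12 rats (2202), followed by Gapdh (2004) and Aldoa (1081). The ranges of Ldhb (1601 to 2550 FPKM) and Gapdh (1780 to 2364 FPKM) over the rats overlapped. Next came Ldha (429), Pgam2 (379), Pkm (303), Pygm (273), Pgk1 (269), Eno3 (217) and Pfkm (186), and the ranges of neighbours in this order overlapped. In most families the heart or muscle form led. Slc2a4 (122) stood above Slc2a1 (6.65), Pfkm above Pfkl (12.7) and Pfkp (7.42), Pgam2 above Pgam1 (84.8), Pygm above Pygb (57.5) and Pygl (1.39), and Aldoa above Aldoc (1.54), each as mean FPKM. Among the hexokinases the constitutive Hk1 (45.9) stood above Hk2 (23.4), the insulin-regulated form of muscle and heart. Among the PFKFB genes Pfkfb2, the heart form, and Pfkfb3, the inducible form, had nearly the same mean FPKM (9.97 and 9.57). Slc16a3, the lactate exporter MCT4 of glycolytic tissue, was at 0.74 FPKM, Pfkfb4 at 0.27 and Eno2, the neuronal enolase, at 0.059. Eno2 was listed at 0 in some rats.

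**Figure D1:**
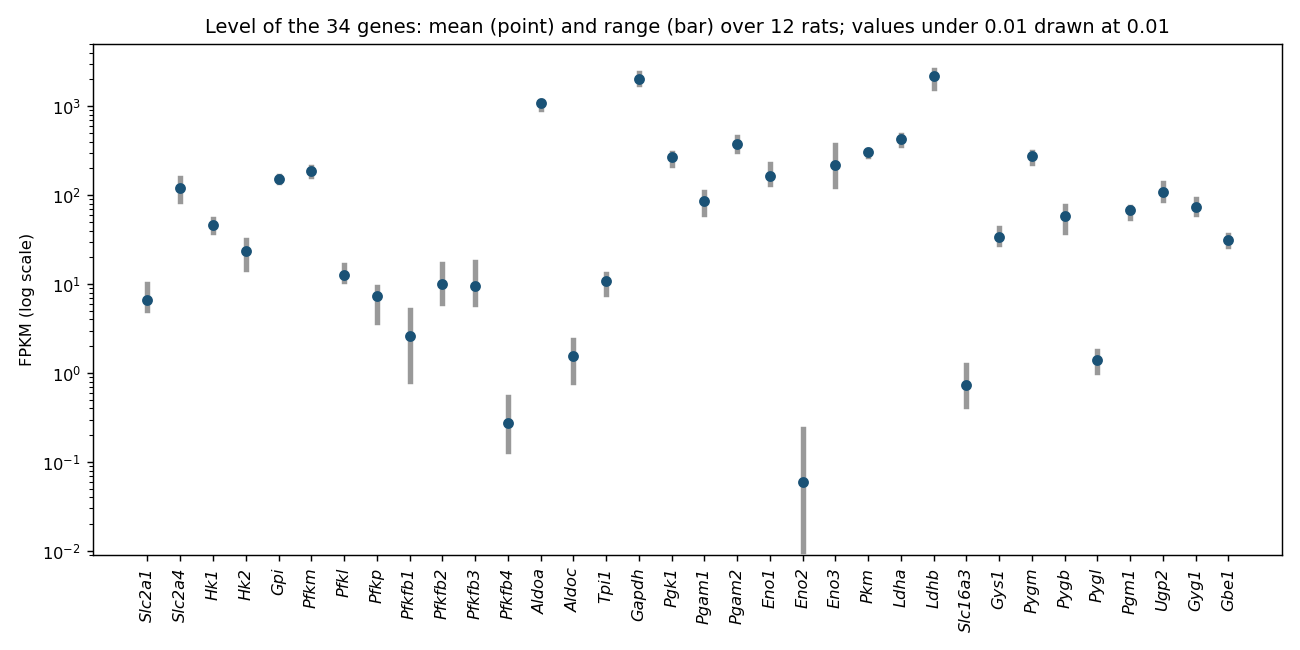
Level of the 34 genes in pathway order, as FPKM on a log axis. Points are means over 12 rats and bars run from the lowest to the highest rat. Ldhb, Gapdh and Aldoa lie highest, above 926 FPKM in every rat, and Eno2 and Pfkfb4 lie lowest.

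The spread among rats of a group differed between these genes. The CPM of the highest rat of a group was at most 1.18 times that of the lowest for Pfkm and Gpi. It was up to 1.42 times for Gapdh, 1.43 times for Slc2a4, 1.48 times for Hk2, 1.67 times for Pygb and 1.97 times for Eno3. It reached 2.21 times for Pfkfb3, 2.60 times for Pfkfb1 and 3.35 times for the weakly expressed Aldoc.

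Each pair of groups was compared gene by gene with edgeR's quasi-likelihood test over all genes that passed a filter on low counts. A gene was called where its Benjamini-Hochberg adjusted p was under 0.05 and its absolute log2 fold change over 1. Of the 34 genes, 32 were tested in each comparison, and 33 in BAIBA against HF. Eno2 was never tested, and Pfkfb4 was tested only in BAIBA against HF and in the test across the 4 groups. None of the tested genes was called in any of the 6 comparisons. Of all genes, 0% were called in HF or HFE against Sham and in HFE or BAIBA against HF, 0.0808% in BAIBA against HFE and 0.0402% in BAIBA against Sham.

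At an unadjusted p under 0.05, HF rats had 4 of these genes lower than Sham and 0 higher, where 3.53% of all genes were lower and 2.47% higher. HFE rats had 1 lower and 1 higher than HF (all genes 3.29 and 4.34%), and BAIBA rats likewise 1 lower and 1 higher than HF (all genes 2.73 and 2.81%). BAIBA rats had 4 lower and 0 higher than Sham (all genes 3.28 and 4.13%), and 2 lower and 1 higher than HFE (all genes 4.88 and 4.68%). HFE rats had 5 lower and 2 higher than Sham (all genes 5.15 and 6.04%). The comparisons with Sham share the Sham rats, and those with HF share the HF rats. The median log2 fold change of the tested members was -0.08 in HF against Sham, 0.02 in HFE against HF, -0.03 in BAIBA against HF, -0.10 in BAIBA against Sham, -0.06 in BAIBA against HFE and -0.04 in HFE against Sham. Over all genes it lay between -0.01 and 0.01.

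A test of any difference among the 4 groups, over all 12 rats, called none of 33 members (0% of all genes), and 7 members had an unadjusted p under 0.05 (9.71% of all genes). In edgeR the smallest of these were 0.00141 for Slc2a1, 0.00297 for Hk2, 0.00391 for Pfkfb3 and 0.0234 for Ldhb, and the lowest adjusted p was 0.266. DESeq2, run on the same counts, put Slc2a1, Hk2 and Pfkfb3 at adjusted p = 0.00761, 0.0109 and 0.00444 in its test across the groups (1.97% of all genes under 0.05). With no limit on the fold change, DESeq2 gave an adjusted p under 0.05 for Hk2 in HF against Sham (0.334% of all genes), Pfkfb3 in BAIBA against Sham (0.687%) and both Pfkfb3 and Pygb in HFE against Sham (1.11%). With the limit, only Pfkfb3 in HFE against Sham remained (0.467% of all genes). It gave none in HFE against HF (0.238%), BAIBA against HF (0.188%) or BAIBA against HFE (2.09%). limma on log2 FPKM called 0 members in each comparison.

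**Figure D2:**
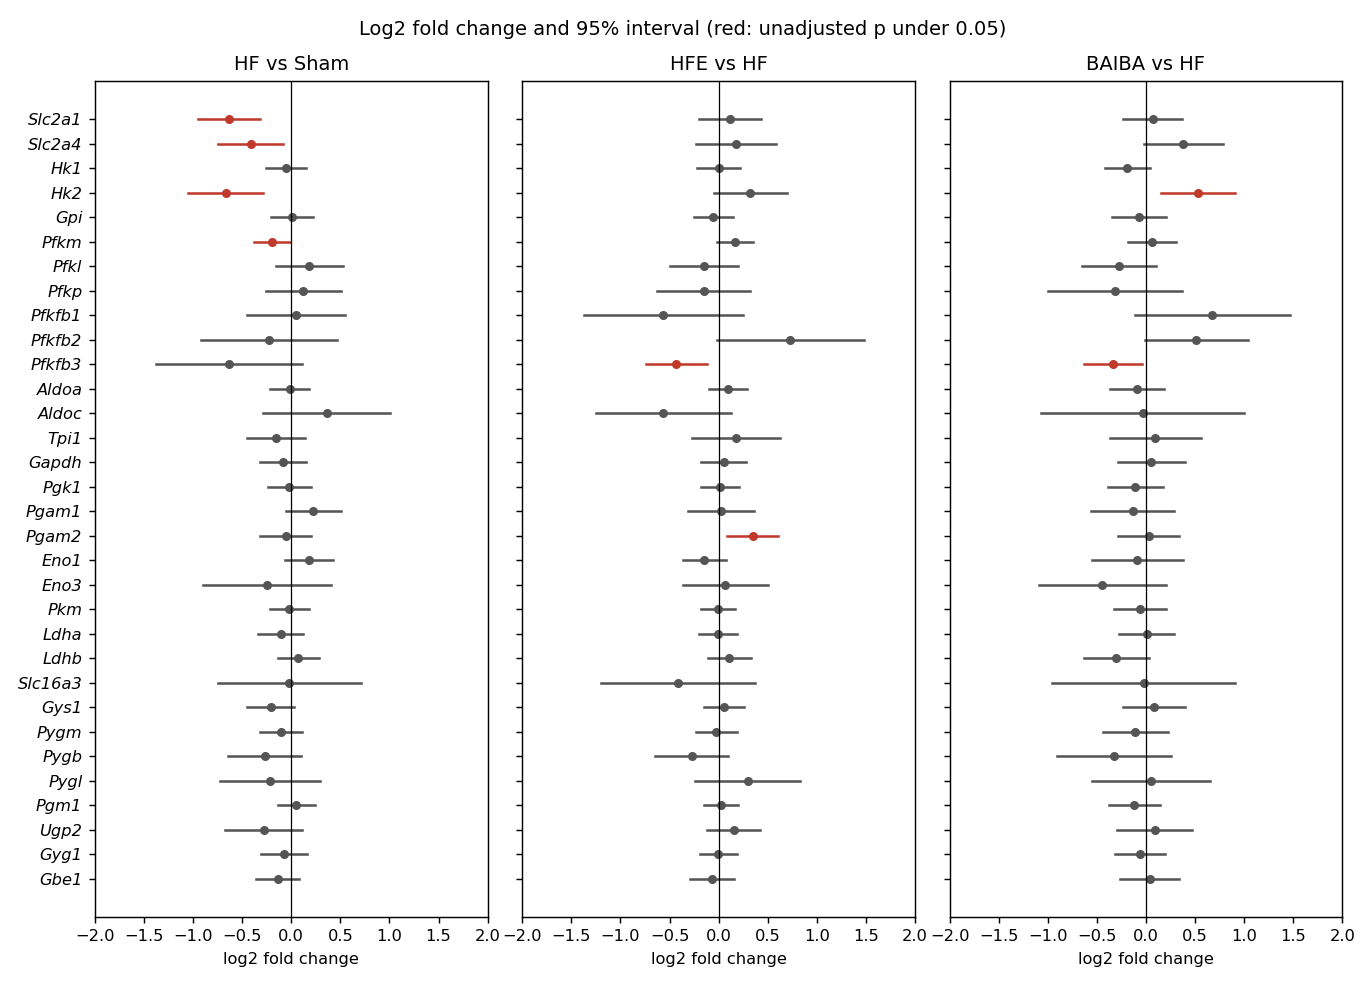
Log2 fold change (point) with its 95% interval (line) for 32 genes in HF against Sham and in both treatments against HF, with genes in pathway order from top to bottom. Red marks an unadjusted p under 0.05. Most points lie within 0.5 of 0. In HF against Sham, 23 of 32 points lie to the left of 0, and of these Slc2a1, Slc2a4, Hk2 and Pfkm are red.

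Markers of other cell types were examined in the same rats, and none was called in any comparison. The 8 cardiomyocyte markers were all detected, with a summed level of 45948 to 47579.7 CPM in Sham, 39094 to 40433 in HF, 39329 to 45663 in HFE and 38651 to 45969 in BAIBA. In HF against Sham, 2 of the 8, Myh6 (log2 fold change -0.62) and Pln (-0.24), were lower at an unadjusted p under 0.05, and 0 were higher. Tnnt2, Tnni3, Actc1, Myl2 and Myl3 lay between -0.05 and 0.08, Ryr2 was at -0.24, and the list median was -0.05. At the same threshold, 4 of 9 fibroblast markers and 1 of 5 macrophage markers, Lyz2, were lower in HF than in Sham, and 0 were higher (all genes 3.53% lower and 2.47% higher). In BAIBA against HFE, 3 of 5 macrophage and 3 of 9 fibroblast markers were higher and 0 lower. There, 3 of 8 cardiomyocyte markers were lower and 1 was higher (all genes 4.88% lower and 4.68% higher). In HFE against Sham, 5 of 5 macrophage markers and 5 of 9 fibroblast markers were lower at an unadjusted p under 0.05. Of 8 cardiomyocyte markers 5 were higher and 1, Myh6, was lower, with the smallest p of that list (all genes 5.15% lower and 6.04% higher). The summed cardiomyocyte level nonetheless lay lower in all HFE rats than in all Sham rats. The summed macrophage level was 151 to 199 CPM in Sham, 109 to 177 in HF and 81.1 to 122 in HFE. Rat 1 of the BAIBA group stood apart at 908 CPM, against 137 and 159.9 CPM in the other BAIBA rats. Its fibroblast sum was 2299 CPM, while the other 11 rats lay between 1155 and 1778. The macrophage markers differed in size of change. In BAIBA against HF, Lyz2 had a log2 fold change of 2.66 (SE 1.15), and the other macrophage markers lay between -0.09 and 0.67. Erythroid markers summed to 901 to 1298 CPM in BAIBA and 534 to 776 in Sham, and 4 of 4 were higher in BAIBA at an unadjusted p under 0.05 (all genes 4.13%). Atrial markers summed to 184, 30.5 and 441 CPM in Sham, 69.8, 457 and 538 in HF, 195, 131 and 28.6 in HFE and 215, 12.3 and 13.4 in BAIBA, and 3 of 4 were lower in BAIBA than in Sham at an unadjusted p under 0.05 (all genes 3.28%). Of these, Sln was at 0 in some rats. No macrophage, fibroblast or erythroid marker was at 0 in any rat. The part of these cell types in the results was not tested. Without rat 1 of the BAIBA group, the count of called members was 0 in each comparison that used it. The count was also 0 with that rat included, so it cannot show the effect of that rat.

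Upstream sequences are shown for Slc2a1, Hk2 and Pfkfb3, which had the smallest p across the 4 groups, and for Pgam2, which was highest in HFE rats, so that the letters near their start sites can be compared. They are the 250 bases before the RefSeq start on the gene's strand in build GRCr8, at chr5:138002272-138002521 (+) for Slc2a1, chr4:116841276-116841525 (-) for Hk2, chr17:71944683-71944932 (+) for Pfkfb3 and chr14:84897875-84898124 (-) for Pgam2. Capitals mark ACGTG on either strand, the core of the hypoxia response element, in the first 3 sequences, and TATAAA on either strand in Pgam2.
Slc2a1: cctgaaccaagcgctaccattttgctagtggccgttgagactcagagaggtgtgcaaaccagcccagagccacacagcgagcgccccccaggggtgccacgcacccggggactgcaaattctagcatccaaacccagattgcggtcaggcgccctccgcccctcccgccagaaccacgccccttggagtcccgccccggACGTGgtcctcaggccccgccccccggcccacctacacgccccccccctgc
Hk2: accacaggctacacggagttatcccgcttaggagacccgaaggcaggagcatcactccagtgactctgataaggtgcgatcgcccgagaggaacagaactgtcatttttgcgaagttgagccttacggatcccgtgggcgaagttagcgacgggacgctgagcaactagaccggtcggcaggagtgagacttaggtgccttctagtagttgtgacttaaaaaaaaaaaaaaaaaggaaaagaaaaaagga
Pfkfb3: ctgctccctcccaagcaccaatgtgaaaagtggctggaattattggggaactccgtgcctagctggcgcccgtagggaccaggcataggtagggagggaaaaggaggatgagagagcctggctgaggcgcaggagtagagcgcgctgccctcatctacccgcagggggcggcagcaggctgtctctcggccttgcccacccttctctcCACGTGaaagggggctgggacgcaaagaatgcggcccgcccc
Pgam2: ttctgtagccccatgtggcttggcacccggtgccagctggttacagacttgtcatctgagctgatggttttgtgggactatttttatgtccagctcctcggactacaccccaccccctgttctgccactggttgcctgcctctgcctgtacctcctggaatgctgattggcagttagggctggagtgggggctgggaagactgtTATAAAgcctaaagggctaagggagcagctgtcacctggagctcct
ACGTG began 51 bases before the start in Slc2a1. In Pfkfb3 it was found on both strands, overlapping as CACGTG, whose first base lay 42 bases before the start. The Hk2 window held no ACGTG, and TATAAA began 46 bases before the start in Pgam2. RefSeq entries were matched for 32 of the 34 members, all but Pgk1 and Slc2a4, and gave 36 windows. ACGTG was in 16 of the 36 windows (44.4%) and in 16.6% of 33360 windows of all genes. TATAAA was in 3 of the 36 (8.33%) and in 12.9% of all, and GGGCGG, the GC box, on either strand, in 22 of the 36 (61.1%) and in 30.5% of all. ACGTG can lie within the E-box CACGTG, so these counts overlap with that motif.

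Slc2a1, which encodes the basal glucose transporter GLUT1, was lower after infarction in every rat. Its level was 26.0, 22.7 and 19.8 CPM in the Sham rats and 14.79, 13.5 and 15.9 CPM in the HF rats. It was 13.7, 17.3 and 17.0 CPM in the HFE rats and 15.5, 16.5 and 14.4 CPM in the BAIBA rats. All 9 rats with an infarct lay below all 3 Sham rats, and the infarct groups overlapped with each other. Against Sham, the log2 fold change was -0.63 (SE 0.14, unadjusted p = 0.00194, adjusted p = 0.737) in HF, -0.51 (SE 0.14, adjusted p = 0.298) in HFE and -0.56 (SE 0.13, adjusted p = 0.386) in BAIBA. Against HF, its 95% interval ran from -0.20 to 0.43 in HFE and from -0.23 to 0.37 in BAIBA on the log2 scale.

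Slc2a4, which encodes the insulin-responsive transporter GLUT4, was at 314, 365 and 341 CPM in Sham and 314, 219.6 and 232 CPM in HF. Rats 2 and 3 of the HF group lay below all Sham rats, while rat 1 equalled the lowest of them within rounding. The log2 fold change of HF against Sham was -0.41 (SE 0.14, unadjusted p = 0.0216, adjusted p = 0.805). HFE rats were at 244, 284 and 338 CPM and BAIBA rats at 316, 295 and 388 CPM, so both groups overlapped with Sham and with HF. The log2 fold change against HF was 0.18 (SE 0.17) in HFE and 0.38 (SE 0.17) in BAIBA, with unadjusted p of 0.337 and 0.0592. The ratio of Slc2a4 to Slc2a1, as FPKM, was 12.5 to 17.8 in Sham, 15.1 to 21.9 in HF, 17.0 to 20.6 in HFE and 18.5 to 27.9 in BAIBA. BAIBA rats lay above Sham rats, and HF and HFE overlapped with both.

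Hk2, the insulin-regulated hexokinase of muscle and heart, was the gene of the set with the most negative value in HF against Sham. Its level was 171, 143 and 142 CPM in Sham, 119.9, 81.0 and 86.6 CPM in HF, 113, 114 and 132 CPM in HFE and 131, 135 and 151 CPM in BAIBA. HF rats lay below all Sham rats, BAIBA rats lay above all HF rats, and the HFE rats lay below all Sham rats. The log2 fold change was -0.67 (SE 0.16, unadjusted p = 0.0043, adjusted p = 0.772) in HF against Sham, -0.34 (SE 0.10, adjusted p = 0.317) in HFE against Sham and -0.12 (SE 0.11, adjusted p = 0.855) in BAIBA against Sham. Against HF it was 0.53 (SE 0.16, unadjusted p = 0.0115, adjusted p = 0.851) in BAIBA and 0.32 (SE 0.16, unadjusted p = 0.0799) in HFE.

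Hk1, the constitutive hexokinase bound to mitochondria, was at 125, 124 and 142 CPM in Sham and 126, 118 and 132 CPM in HF. HFE rats were at 116.1, 123 and 138 CPM, and BAIBA rats at 115.7, 108 and 107 CPM, below all rats of Sham, HF and HFE. BAIBA against Sham gave a log2 fold change of -0.24 (SE 0.10, unadjusted p = 0.0378, adjusted p = 0.656). The ratio of Hk2 to Hk1, as FPKM, was 0.68, 0.57 and 0.49 in Sham, 0.47, 0.34 and 0.32 in HF, 0.48, 0.46 and 0.47 in HFE, and 0.56, 0.62 and 0.70 in BAIBA. HF ratios lay below those of Sham and BAIBA in every rat, and the ratio was described without a test.

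**Figure D3:**
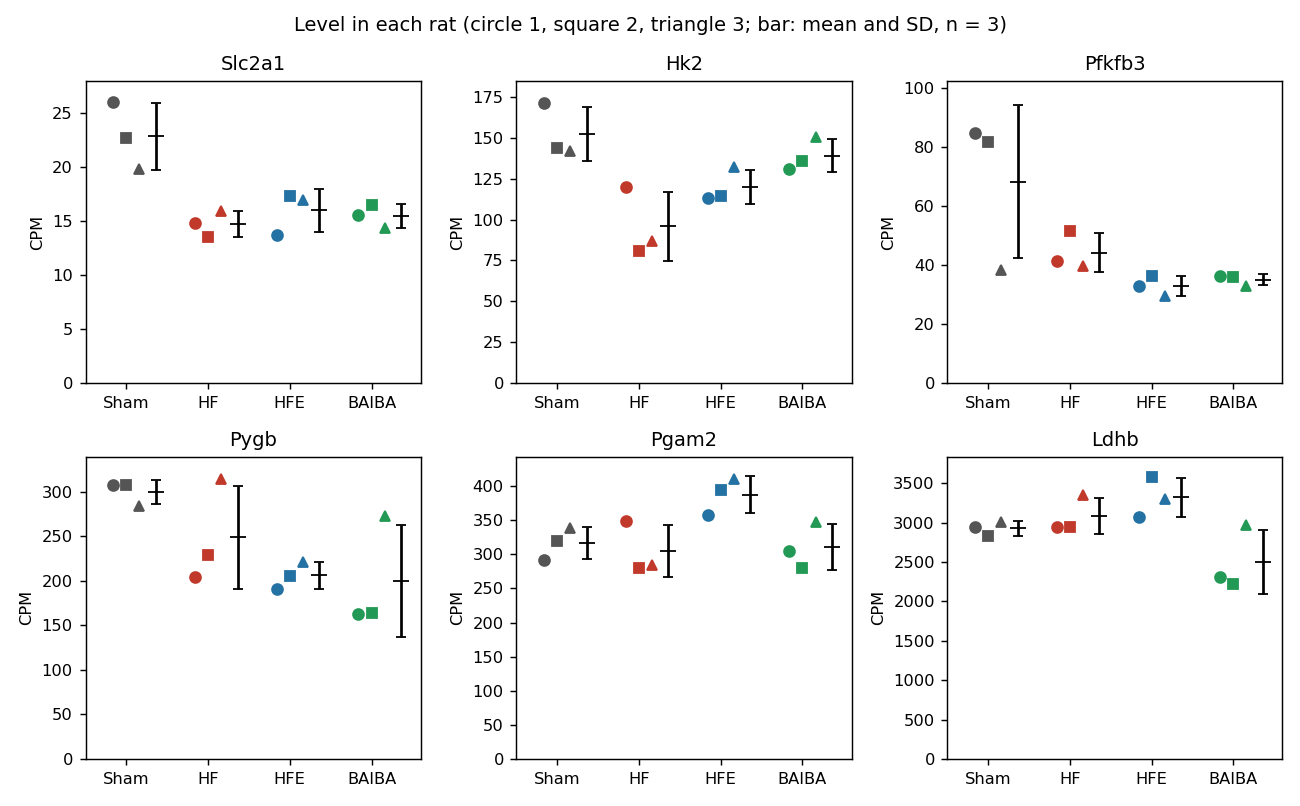
CPM of Slc2a1, Hk2, Pfkfb3, Pygb, Pgam2 and Ldhb in each of 12 rats by group. Symbols are rats 1 to 3, which have no order, and bars give the mean and SD of 3 rats. Slc2a1 lies at 19.8 CPM or above in Sham and at 17.3 CPM or below in all other rats.

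Gpi, which converts glucose 6-phosphate to fructose 6-phosphate, stayed between 271 and 348 CPM in the 12 rats. Pfkm, the muscle subunit of phosphofructokinase, was at 598, 596 and 563 CPM in Sham and 523, 502 and 511 CPM in HF. All HF rats lay below all Sham rats by a small amount, a log2 fold change of -0.20 (SE 0.08, unadjusted p = 0.0411, adjusted p = 0.805). It was at 537, 575 and 612 CPM in HFE and 496, 523 and 584 CPM in BAIBA. HFE rats thus lay above all HF rats and overlapped with Sham, and BAIBA rats overlapped with both. The liver subunit Pfkl lay between 30.0 and 47.3 CPM, and the platelet subunit Pfkp between 8.32 and 20.6 CPM.

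Pfkfb3, whose enzyme strongly favours making fructose 2,6-bisphosphate, had the lowest fold changes of the set in HFE and BAIBA against Sham. Its level was 84.6, 81.6 and 38.3 CPM in Sham, 41.3, 51.6 and 39.6 CPM in HF, 32.8, 36.2 and 29.4 CPM in HFE and 36.1, 35.98 and 32.9 CPM in BAIBA. Sham rats 1 and 2 were high, while Sham rat 3 lay among the infarcted rats and below all HF rats. HFE and BAIBA rats lay below all HF rats and below all Sham rats. The log2 fold change was -1.05 (SE 0.31, unadjusted p = 0.016, adjusted p = 0.352) in HFE against Sham and -0.96 (SE 0.29, unadjusted p = 0.0134, adjusted p = 0.589) in BAIBA against Sham. Against HF it was -0.43 (SE 0.13, unadjusted p = 0.0133, adjusted p = 0.627) in HFE and -0.34 (SE 0.13, unadjusted p = 0.0305, adjusted p = 0.851) in BAIBA. HF against Sham gave -0.63 (SE 0.31, unadjusted p = 0.0834). Sham rat 3 decided a call: without it, BAIBA against Sham gave -1.24 with an adjusted p of 0.0203, past both limits.

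Pfkfb2, the heart form, whose enzyme kinases activate by phosphorylation, was at 49.5, 29.2 and 41.6 CPM in Sham and 26.1, 47.8 and 29.1 CPM in HF. It was at 75.4, 55.7 and 39.9 CPM in HFE and 49.4, 52.7 and 44.9 CPM in BAIBA. The ranges overlapped, and the log2 fold change against HF was 0.73 (SE 0.31, unadjusted p = 0.0543) in HFE and 0.51 (SE 0.22, unadjusted p = 0.054) in BAIBA. The ratio of Pfkfb2 to Pfkfb3, as FPKM, was 0.61, 0.37 and 1.13 in Sham and 0.66, 0.97 and 0.77 in HF. It was 2.40, 1.61 and 1.41 in HFE and 1.42, 1.53 and 1.42 in BAIBA. All 6 treated rats lay above all 6 rats of Sham and HF in this ratio. Its denominator, Pfkfb3, was by itself lower in the treated rats than in all Sham and HF rats. Ratios of Pfkm to Pfkp, Pfkm to Pfkl, Aldoa to Aldoc, Pgam2 to Pgam1 and Eno3 to Eno1 were also computed. In every other pair computed, the range of treated rats overlapped with that of Sham and HF rats. HF lay below Sham in Pfkm to Pfkp and below HFE in Aldoa to Aldoc. BAIBA lay below Sham and HFE in Eno3 to Eno1. No ratio was tested.

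Pfkfb1, the liver and muscle form, was at 3.63, 5.32 and 5.12 CPM in Sham, 4.24, 5.28 and 5.03 CPM in HF, 4.33, 1.66 and 3.86 CPM in HFE and 4.02, 10.4 and 8.92 CPM in BAIBA. BAIBA rats 2 and 3 were high, and BAIBA rat 1 lay within the other groups. BAIBA against HFE gave a log2 fold change of 1.24 (SE 0.45, unadjusted p = 0.0262, adjusted p = 0.44), the most positive value of the set in any comparison. Pfkfb4 stayed at 1.15 CPM or below in all rats.

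**Figure D4:**
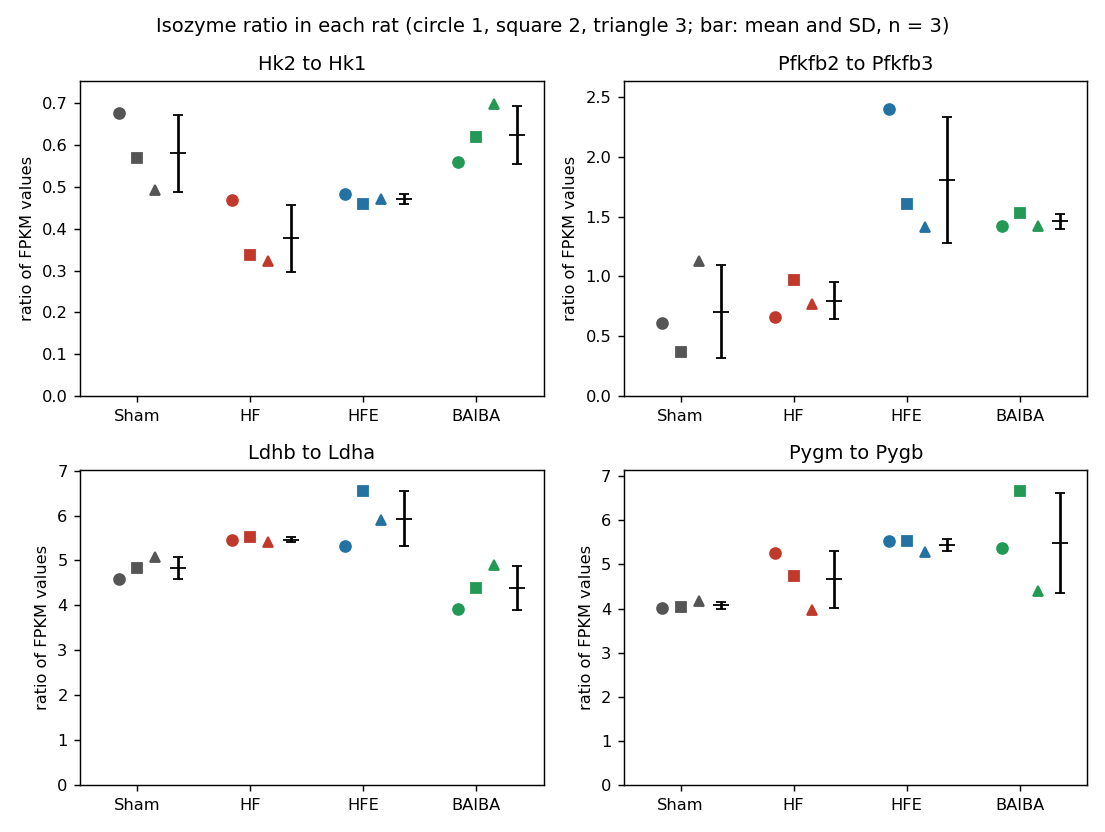
Ratio of the FPKM values of isozyme pairs (Hk2 to Hk1, Pfkfb2 to Pfkfb3, Ldhb to Ldha, Pygm to Pygb) in each of 12 rats by group. The other pairs computed are not drawn. Symbols are rats 1 to 3 and bars give the mean and SD of 3 rats. The Pfkfb2 to Pfkfb3 ratio is at least 1.41 in HFE and BAIBA and at most 1.13 in Sham and HF.

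Aldoa, the muscle aldolase, was nearly level, at 1694, 1825 and 1730.1 CPM in Sham, 1709.8, 1649.6 and 1846 CPM in HF, 1723, 1907 and 1936 CPM in HFE and 1517, 1545 and 1823 CPM in BAIBA. Its log2 fold change stayed between -0.19 and 0.10. Gapdh, which makes the NADH of glycolysis, ranged from 1657 to 2355 CPM, with log2 fold changes between -0.09 and 0.06. Pgk1, the first step that yields ATP, ranged from 382 to 497 CPM.

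Tpi1, which interconverts the triose phosphates, could not be read from its own row. That row held 11.5 to 18.7 CPM, while 2 Tpi1-like rows of the table, LOC100911515 and RGD1563601, together held 202 to 1341% of it. LOC100911515 was at 49.5, 85.2 and 66.3 CPM in Sham, 34.2, 146 and 39.3 CPM in HF, 49.4, 63.1 and 85.9 CPM in HFE and 35.4, 24.6 and 36.4 CPM in BAIBA. RGD1563601 was at 16.9, 13.0 and 13.9 CPM in Sham, 0.40, 23.2 and 0.74 CPM in HF, 9.65, 12.04 and 0.82 CPM in HFE and 0.45, 0.19 and 0.30 CPM in BAIBA. It was thus above 9 CPM in 6 rats and under 1 CPM in the other 6, and rats of HF and of HFE fell on both sides. In BAIBA against Sham its log2 fold change was -5.48 (SE 0.28, adjusted p = 0.000527), and it was the only near-copy of a member that was called. The sum of the 3 rows was 82.2 to 115 CPM in Sham, 49.0 to 182 in HF, 77.8 to 99.0 in HFE and 36.4 to 54.9 in BAIBA. How reads were shared between these rows is not given in the sources used here, so the values of Tpi1 are uncertain. The same holds for Gapdh, whose near-copy LOC108351137 held between 8.59 and 20.8% of its counts. Near-copies of Ldha, Pkm and Eno1 held between 3.52 and 6.16% of theirs.

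**Figure D5:**
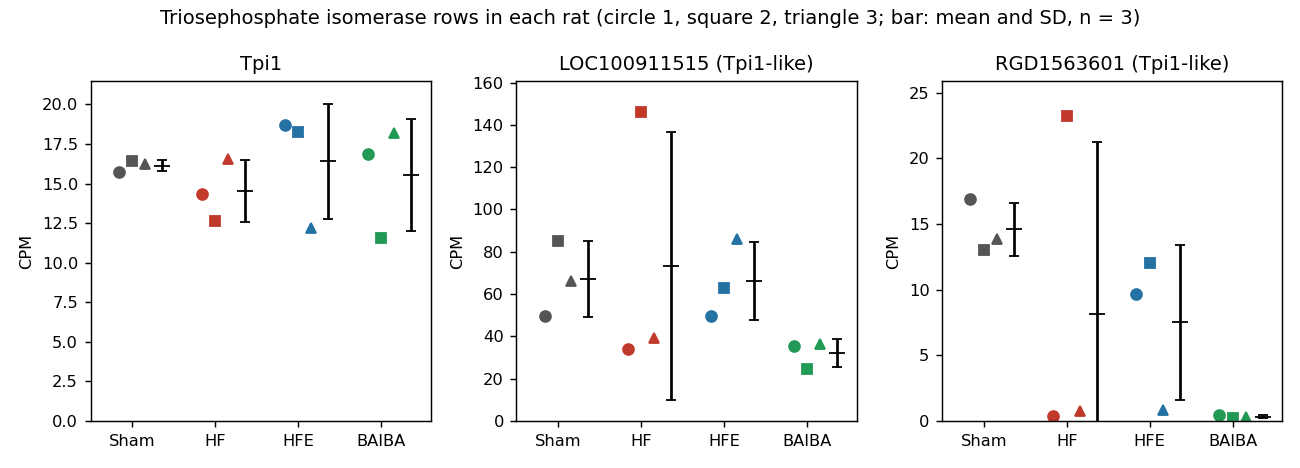
CPM of Tpi1 and its near-copies LOC100911515 and RGD1563601 in each of 12 rats by group. Symbols are rats 1 to 3 and bars give the mean and SD of 3 rats, drawn down to 0. RGD1563601 is under 1 CPM in 6 rats, among them all 3 BAIBA rats.

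Pgam2, the muscle phosphoglycerate mutase, was highest with exercise. Its level was 292, 319.6 and 338 CPM in Sham, 349, 280.3 and 284 CPM in HF, 358, 394 and 411 CPM in HFE and 305, 279.8 and 347 CPM in BAIBA. All HFE rats lay above all other 9 rats. Exercised rats had a log2 fold change of 0.35 (SE 0.11, unadjusted p = 0.016, adjusted p = 0.627) against HF and 0.30 (SE 0.08, unadjusted p = 0.00689, adjusted p = 0.298) against Sham, and BAIBA against HFE gave -0.32 (SE 0.11, adjusted p = 0.39). In HFE against HF, 5 of 8 cardiomyocyte markers were also higher at an unadjusted p under 0.05, and 0 were lower (all genes 4.34 and 3.29%). The log2 fold changes of the rest were 0.18 for Pln, -0.12 for Myh6 and -0.22 for Ryr2. The part of cell content in the Pgam2 result was not tested. Pgam1, the form of other tissues, lay between 112 and 180.5 CPM.

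Eno3, the muscle enolase, varied widely within groups. It was at 348, 508 and 258 CPM in Sham, 294, 389.7 and 256 CPM in HF, 278, 379 and 328 CPM in HFE and 173, 188 and 331 CPM in BAIBA. BAIBA rats 1 and 2 lay below all other rats, and BAIBA rat 3 lay among them. BAIBA against Sham gave a log2 fold change of -0.68 (SE 0.33, unadjusted p = 0.0794). The ubiquitous Eno1 was at 418 CPM in BAIBA rat 3 and between 264 and 380.4 CPM in the other 11 rats. Pkm, pyruvate kinase of muscle, lay between 554 and 698 CPM.

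Ldhb, the heart subunit of lactate dehydrogenase, was at 2945, 2826 and 3005 CPM in Sham, 2948, 2945 and 3347 CPM in HF, 3075, 3578 and 3304 CPM in HFE and 2309, 2223 and 2965 CPM in BAIBA. HFE rats lay above all Sham and all BAIBA rats. BAIBA rats 1 and 2 lay below all other rats, while rat 3 lay within the Sham and HF range. It differed by a log2 fold change of -0.41 (SE 0.13, unadjusted p = 0.0136, adjusted p = 0.351) in BAIBA against HFE and 0.19 (SE 0.08, unadjusted p = 0.0411, adjusted p = 0.42) in HFE against Sham. Ldha, the muscle subunit, was between 607 and 767 CPM. The ratio of Ldhb to Ldha, as FPKM, was 4.59 to 5.07 in Sham, 5.41 to 5.53 in HF, 5.33 to 6.55 in HFE and 3.91 to 4.89 in BAIBA. HF and HFE ratios lay above those of Sham and BAIBA in every rat. Slc16a3 lay between 0.95 and 2.45 CPM.

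Among the glycogen genes, Pygb, the brain-type phosphorylase that the heart also makes, had the smallest p of the whole set. Its level was 308, 308 and 284 CPM in Sham, 204, 229 and 314 CPM in HF, 191, 205 and 221 CPM in HFE and 163, 163 and 273 CPM in BAIBA. HFE and BAIBA rats lay below all Sham rats, while HF rat 3 lay above them. HFE against Sham gave a log2 fold change of -0.54 (SE 0.08, unadjusted p = 0.000103, adjusted p = 0.121), with an adjusted p of 4.9e-05 in DESeq2. BAIBA against Sham gave -0.58 (SE 0.20, unadjusted p = 0.0209, adjusted p = 0.62), and HF against Sham -0.27 (SE 0.16, unadjusted p = 0.13). Against HF, its 95% interval ran from -0.65 to 0.10 in HFE and from -0.90 to 0.26 in BAIBA on the log2 scale.

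Pygm, the muscle phosphorylase, was at 859, 862 and 821 CPM in Sham, 745, 754 and 868 CPM in HF, 735, 787 and 812 CPM in HFE and 609.6, 757 and 832 CPM in BAIBA. Its log2 fold changes lay between -0.20 and -0.02 and none had an unadjusted p under 0.05. The ratio of Pygm to Pygb, as FPKM, was 4.02 to 4.16 in Sham, 3.98 to 5.27 in HF, 5.28 to 5.53 in HFE and 4.40 to 6.67 in BAIBA. Sham and HFE did not overlap, HF spanned the Sham range, and BAIBA spanned the HFE range. Gbe1, the branching enzyme, was at 97.3, 94.0 and 101 CPM in Sham and 84.2, 82.5 and 87.2 CPM in HFE, with HF at 80.2 to 98.6 and BAIBA at 80.7 to 103 CPM overlapping both. All HFE rats lay below all Sham rats, with a log2 fold change of -0.20 (SE 0.07, unadjusted p = 0.0245, adjusted p = 0.377). Gys1, muscle glycogen synthase, lay between 109 and 153 CPM, Gyg1, the primer glycogenin, between 113 and 156 CPM, Ugp2, which makes UDP-glucose, between 173 and 293 CPM, and Pgm1, which links glucose 1-phosphate to glycolysis, between 129.9 and 167 CPM.

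A second list held 45 further genes of the pathway, such as other transporters, phosphorylase kinase subunits, debranching enzymes and glycogen-targeting subunits of protein phosphatase 1. The table had 41 of them, between 32 and 34 were tested in a comparison, and 0 were called. At an unadjusted p under 0.05 there were 3 lower and 0 higher in HF against Sham (all genes 3.53 and 2.47%). HFE against HF had 2 lower and 4 higher (all genes 3.29 and 4.34%), and BAIBA against HF 2 lower and 1 higher (2.73 and 2.81%). BAIBA against HFE had 3 lower and 2 higher (all genes 4.88 and 4.68%), and BAIBA against Sham 1 lower and 2 higher (3.28 and 4.13%). HFE against Sham had 2 lower and 2 higher (all genes 5.15 and 6.04%). Phkg1, the catalytic subunit of muscle phosphorylase kinase, had the smallest p in HFE against Sham. It was at 9.69, 12.6 and 10.2 CPM in Sham and 4.66, 5.68 and 5.002 CPM in HFE, a log2 fold change of -1.08 (SE 0.16, adjusted p = 0.121). All HFE rats lay below all Sham rats, and HF at 4.47 to 10.3 CPM and BAIBA at 6.69 to 10.6 CPM overlapped with Sham. Gaa, the lysosomal glucosidase that degrades glycogen, had the smallest p in both BAIBA against Sham and BAIBA against HFE. It was at 98.9, 113 and 94.7 CPM in Sham, 82.6, 90.2 and 97.1 CPM in HF, 91.7, 94.8 and 101 CPM in HFE and 71.3, 70.8 and 77.7 CPM in BAIBA. All BAIBA rats lay below all other rats, with a log2 fold change of -0.48 (SE 0.10, adjusted p = 0.294) against Sham and -0.38 (SE 0.09, adjusted p = 0.192) against HFE. Stbd1, which ties glycogen to membranes, was at 13.2, 12.4 and 14.1 CPM in HFE and 7.85, 9.999 and 8.16 CPM in HF, a log2 fold change of 0.61 (SE 0.15, adjusted p = 0.627). Sham at 8.08 to 10.05 CPM and BAIBA at 6.75 to 11.04 CPM also lay below HFE. The lactate and pyruvate transporter Slc16a7 was at 2.65, 2.33 and 1.97 CPM in Sham and 1.20, 0.98 and 1.38 CPM in HF, a log2 fold change of -0.96 (SE 0.29, adjusted p = 0.805). HFE at 1.18 to 2.15 CPM and BAIBA at 1.51 to 2.06 CPM overlapped with Sham. Tigar, a fructose bisphosphatase, was at 28.6, 26.1 and 26.6 CPM in HF and 39.5, 32.0 and 33.4 CPM in BAIBA, a log2 fold change of 0.37 (SE 0.12, adjusted p = 0.851). Sham at 32.0 to 33.3 CPM and HFE at 30.2 to 36.03 CPM lay above HF as well.

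Of 15 regulators of glucose use, 14 were in the table and tested, and 0 were called. Txnip, which restrains glucose uptake by GLUT1 and GLUT4, had the smallest p of this list in HF against Sham and in each treatment against HF. It was at 351, 398 and 417 CPM in Sham, 432, 994 and 1115 CPM in HF, 286, 416 and 468 CPM in HFE and 377, 568 and 458 CPM in BAIBA. HF rats 2 and 3 were far above all other rats, and HF rat 1 lay above the Sham rats but within the HFE and BAIBA ranges. The same HF rats 2 and 3 had the lowest Slc2a4 and Hk2 levels of the 12 rats. They also had the highest atrial sums of the 12 rats, 457 and 538 CPM against 69.8 CPM in HF rat 1, and erythroid sums of 960.2 and 1115 CPM against 499 CPM. The atrial markers did not move together. In HF against Sham, Nppa had a log2 fold change of 0.98 (SE 1.19). Myl7 (-1.79), Myl4 (-2.05) and Sln (-2.30) went the other way, and none had an unadjusted p under 0.05. The part of these sums in the Txnip result was not tested. Txnip had a log2 fold change of 1.12 (SE 0.34, unadjusted p = 0.0145, adjusted p = 0.805) in HF against Sham, -1.12 (SE 0.38, unadjusted p = 0.0273, adjusted p = 0.634) in HFE against HF and -0.86 (SE 0.35, unadjusted p = 0.0438, adjusted p = 0.851) in BAIBA against HF. Tbc1d4, which holds GLUT4 inside the cell until insulin or contraction acts on it, was at 61.2, 56.2 and 58.2 CPM in Sham, 47.7, 66.7 and 56.8 CPM in HF, 57.9, 55.9 and 61.3 CPM in HFE and 38.2, 48.3 and 51.3 CPM in BAIBA. All BAIBA rats lay below all rats of Sham and HFE but overlapped with HF, with a log2 fold change of -0.35 (SE 0.12, adjusted p = 0.616) against Sham and -0.34 (SE 0.12, adjusted p = 0.414) against HFE. Foxo1, a transcription factor that insulin signalling shuts out of the nucleus, had the smallest p of the list in HFE against Sham, above 0.05, at 18.0, 21.3 and 20.3 CPM in Sham and 15.5, 15.4 and 19.8 CPM in HFE.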

How the data were processed

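Left ventricular RNA of 12 rats (3 in each of 4 groups, from the sample labels) was sequenced paired-end after oligo(dT) selection. HISAT2 was the authors' aligner, StringTie added genes outside the annotation, and featureCounts gave the count of each gene. The authors deposited these raw counts as whole numbers, and the authors computed the deposited FPKM values from the same counts and gene lengths. The labels' processing notes name mm9, a mouse build, although the gene identifiers are of rat, so the build behind the counts is unclear and no coordinate of the table was used. The alignment is described as run in an orientation mode. How the counting treated strand and multi-mapping reads is not given in the sources used here. Tables that repeat these values differed in 0 of them. Columns of the authors' comparisons, which hold fold changes and p-values, were not used.

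The main tests used edgeR 4.0.16 under R 4.3.3 (TMM, filterByExpr, robust quasi-likelihood fits, 2 groups a fit, no covariate). Each SE was obtained from the fold change and its F statistic. Adjusted p-values are Benjamini-Hochberg over all genes tested and, where no tool is named, from edgeR. CPM used TMM factors over all 12 rats. Alternatives were DESeq2 1.42.0, limma 3.58.1 on log2(FPKM + 1) and log2(FPKM + 0.1), other scalings and filters, a fit of all 12 rats, a replicate block, each rat left out and, added after seeing the data, counts of near-copies added to their member. The code was tested on simulated counts. No replicates were duplicates (chi-square per degree of freedom 11.8 to 33.7). Each p-value sets a difference between groups against the spread between these rats, estimated with information shared over genes.

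Values per rat were given for members at an unadjusted p under 0.05 (up to 4 a comparison), the member of each family with the highest FPKM, the members with the smallest p across the 4 groups, and the genes of the other lists with the smallest p. Other values per rat, such as those of Pfkfb2 ratios and near-copies, were also described. Members and lists were chosen with earlier results of these data known. Same-numbered rats are different animals. The deviations of same-numbered rats from their group means correlated at over 0.1 in all 3 pairs only for BAIBA against HFE (0.118 to 0.224). The fold changes, SEs and p-values given for that comparison came from the fit without a block. The number entered only as a block in an alternative. Promoter sequences are from RefSeq, build GRCr8.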

Additional observations from a re-analysis of the deposited data

How the results depend on the processing

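The count of called members was 0 under every alternative run in HF against Sham, HFE against HF, BAIBA against HF and BAIBA against HFE. In BAIBA against Sham it ranged from 0 to 1 when a rat was left out, and in the test across the 4 groups likewise from 0 to 1, each time with Pfkfb3 called without Sham rat 3. DESeq2 called 1 member in HFE against Sham (Pfkfb3, log2 fold change -1.06, adjusted p = 0.00787) and 3 across the 4 groups. The cause of the difference between DESeq2 and edgeR was not tested. With the replicate number as a block, 0 members were called in each comparison. The main fit without the block also called 0. This count therefore cannot show whether the correlation of same-numbered rats in BAIBA against HFE mattered. Fold changes were followed for the 22 pairs of a member and a comparison at an unadjusted p under 0.05 in the main fit. Over 374 fold changes of these pairs in the alternatives, the sign was that of the main value in 374, and 2 were called. The alternatives reuse the same rats, so pairs chosen by their p were unlikely to change sign. The lowest and highest log2 fold changes were -1.24 and -0.77 for Pfkfb3 in BAIBA against Sham, -0.86 and -0.57 for Hk2 in HF against Sham, and -0.72 and -0.52 for Slc2a1 in HF against Sham. The median over the members ranged from -0.08 to 0.01 in BAIBA against HF and from -0.02 to 0.05 in HFE against HF, so its sign depended on the setting there. With 3 rats a group, members with a small fold change or few counts could differ without passing the threshold.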
